A study of Mus musculus with 2 samples.

Results

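C/EBP transcription factors, the gp130-STAT3 signalling chain and acute phase genes were described in MS1 cells with less Pspc1. The set held 10 genes, all of them among the 11405 genes of both tables: Cebpb, Cebpd, Cebpg, Il6st, Stat3, Socs3, Il4ra, Nfkbiz, Lcn2 and Serpina3g. They were picked by symbol with results of these libraries known, because 5 of them (Cebpb, Cebpd, Lcn2, Serpina3g and Il4ra) were higher in the knockdown library. The values below therefore describe that choice and carry no test. MS1 cells are mouse endothelial cells of pancreatic islet origin, kept as an immortalised line. Cells labelled as Pspc1 knockdown received a lentivirus with a short hairpin RNA against Pspc1, and cells labelled wt received a lentivirus with a hairpin against LacZ, a bacterial gene. Both groups thus carried a lentiviral hairpin, and each was sequenced as 1 poly-A RNA library, with no replicate.

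C/EBP proteins are leucine zipper transcription factors that bind DNA as dimers. C/EBPbeta and C/EBPdelta are known as activators of acute phase and cytokine genes, while C/EBPgamma lacks a strong activation domain and works mainly as a dimer partner. Cytokines of the interleukin 6 family act through the shared receptor chain gp130, JAK kinases and STAT3, and STAT3 induces the feedback inhibitor SOCS3. In endothelium this chain, together with NF-kB, is known from the response to inflammation, where liver and other tissues raise acute phase proteins such as lipocalin 2.

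Values are read counts that the authors scaled by a constant per library. The Pspc1 hairpin library held 53518762 reads on the listed genes and the LacZ hairpin library 64009912. Pspc1 itself had a value of 3.78 in the Pspc1 hairpin library, against 28.8 in the LacZ hairpin library, or 7.62-fold less. Of 12 endothelial markers 10 were listed, none of them 2-fold different, with summed values of 6966 in the Pspc1 hairpin library and 6717 in the LacZ hairpin library. The sum hides a split, as 4 had the higher value with the Pspc1 hairpin and 6 with the LacZ hairpin. Over 8633 genes whose 2 values averaged at least 5, 0.961% were at least 2-fold higher and 1.92% at least 2-fold lower. Nothing is therefore read from the lack of a 2-fold difference among the 10 markers. Esam had 566 with the Pspc1 hairpin and 376 with the LacZ hairpin, while Cdh5 had 511 with the Pspc1 hairpin and 859 with the LacZ hairpin. Pecam1 had 2175 with the Pspc1 hairpin and 2258 with the LacZ hairpin, and Kdr, a receptor for VEGF, had 77.3 with the Pspc1 hairpin and 148.9 with the LacZ hairpin. Of 5 neutrophil markers 1 was listed, Ly6g, with 27.6 in the Pspc1 hairpin library and 13.9 in the LacZ hairpin library. Of 8 leukocyte and macrophage markers 2 were listed, Cd68 and Cd14, with a sum of 125.0 in the Pspc1 hairpin library and 103.7 in the LacZ hairpin library, nearly all of it Cd68, and the other 6 were not analysed here. Among markers of hepatocytes, the main source of acute phase proteins, Apoa2 was the 1 of 5 listed, with 1.04 in the Pspc1 hairpin library and 1.64 in the LacZ hairpin library. Single listed markers of fibroblasts (0.985 with the Pspc1 hairpin, 1.15 with the LacZ hairpin), epithelium (Krt18, 36.9 with the Pspc1 hairpin, 23.9 with the LacZ hairpin) and adipocytes (Fabp4, 7.84 with the Pspc1 hairpin, 22.1 with the LacZ hairpin) complete the check, and none of 5 pancreatic markers was listed. The part of other cell types in the results below was not tested. In bulk RNA, more cells that make a transcript and more transcript per cell cannot be told apart.

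Sequence before the transcription start was available for 8 of the 10 genes, as windows of 250 bases from RefSeq on build GRCm38.p6. Each was searched on both strands for a C/EBP motif (TTGCNNAA), a STAT motif (TTCNNNGAA) and the 10-letter kappaB consensus of NF-kB. A match was found in 3 of them, and no match overlapped another. The stretches of 120 bases with these matches are shown because Lcn2 and Serpina3g differed most among the 10 and Socs3 is the textbook STAT3 target, beside the same length of the Cebpb promoter, which held no match. Capitals mark the matches, and all are written 5′ to 3′ on the strand of the gene.
Lcn2, chr2:32387870-32387989, minus strand, 250 to 131 bases before the start: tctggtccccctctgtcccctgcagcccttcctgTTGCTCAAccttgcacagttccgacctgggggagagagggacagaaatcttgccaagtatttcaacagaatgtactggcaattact
Serpina3g, chr12:104236027-104236146, plus strand, 120 to 1 bases before the start: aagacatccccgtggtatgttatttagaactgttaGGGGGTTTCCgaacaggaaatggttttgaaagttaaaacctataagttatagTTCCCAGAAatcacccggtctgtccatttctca
Socs3, chr11:117969497-117969616, minus strand, 250 to 131 bases before the start: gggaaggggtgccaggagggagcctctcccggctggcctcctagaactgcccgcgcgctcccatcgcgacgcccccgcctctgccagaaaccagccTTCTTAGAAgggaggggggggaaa
Cebpb, chr2:167688795-167688914, plus strand, 120 to 1 bases before the start: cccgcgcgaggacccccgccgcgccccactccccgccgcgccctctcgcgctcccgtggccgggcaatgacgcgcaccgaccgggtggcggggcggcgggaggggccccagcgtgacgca

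The Lcn2 match fits the C/EBP motif and begins 216 bases before the start. Serpina3g holds a kappaB match from 85 bases and a STAT match from 33 bases before its start. The Socs3 match fits the STAT motif and begins 154 bases before the start. Over all 32851 RefSeq windows, the C/EBP motif was present in 9.56%, the STAT motif in 7.02% and the kappaB motif in 3.90%. A match is a run of letters and no evidence of binding. For Lcn2 and Socs3 the GENCODE annotation has transcripts that begin further upstream, so these stretches lie inside the annotated gene.

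Of the 10 genes, 6 were at least 2-fold higher in the Pspc1 hairpin library and none was at least 2-fold lower. The 4 others, Stat3, Il6st, Socs3 and Cebpg, stayed within 2-fold. Across the 8633 genes whose 2 values averaged at least 5, 0.961% were at least 2-fold higher and 1.92% at least 2-fold lower. Since the genes were chosen for being higher, nothing is read from that contrast. At 1.5-fold the count of higher genes was also 6, where 3.97% of the 8633 were higher and 9.37% lower. At a minimum mean of 50, which Cebpd, Stat3, Socs3 and Il6st pass, 1 of these 4 was at least 2-fold higher, Cebpd, where 0.551% of 3629 such genes were higher and 0.937% lower. The median log2 ratio, Pspc1 hairpin over LacZ hairpin with a pseudocount of 0.5, was 1.37 over the 10 genes and -0.01 over the 8633. All 10 genes had a mean of at least 5, but Lcn2 and Serpina3g reached it through the Pspc1 hairpin library alone. There were 78 genes of that kind, under 5 in the LacZ hairpin library, of which 17 were at least 2-fold higher. Of the 5 genes chosen for being higher, Cebpb had the smallest log2 ratio (1.51), and of those chosen only by pathway Nfkbiz had the highest (1.24), followed by Stat3 (0.54).

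**Figure D1:**
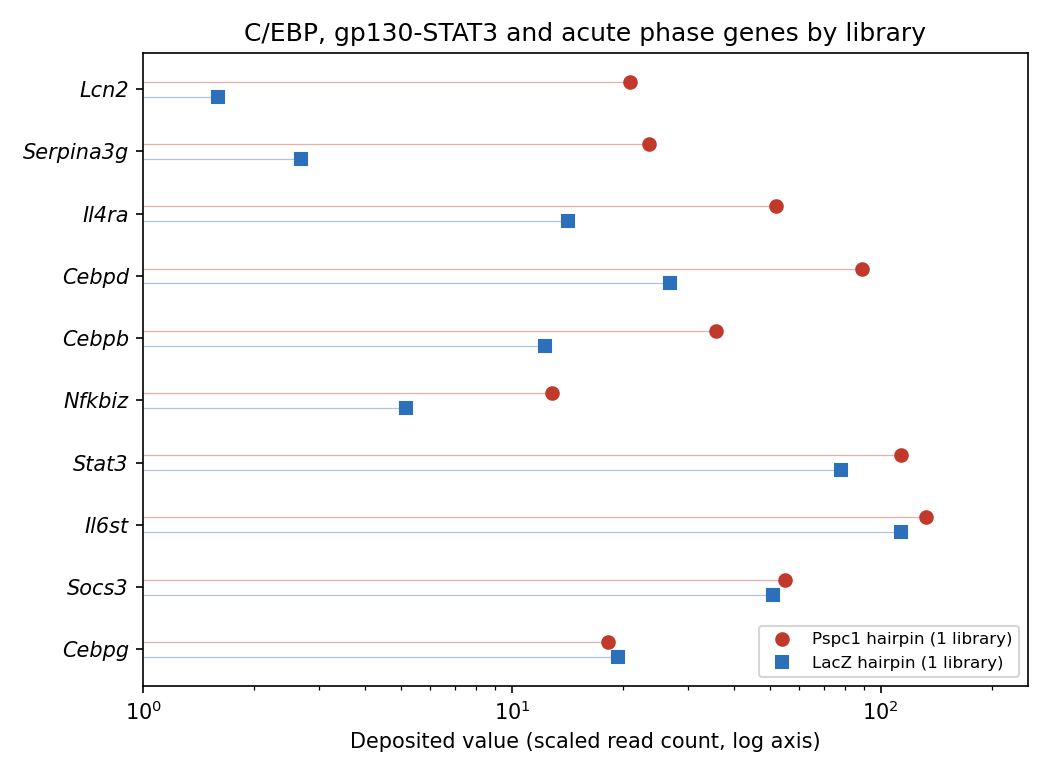
Deposited value (scaled read count, log axis) of each of the 10 genes in the Pspc1 hairpin library (red circles, upper) and the LacZ hairpin library (blue squares, lower), 1 library each, ordered by log2 ratio. Lcn2 and Serpina3g are the genes furthest apart, at 20.9 against 1.59 and 23.6 against 2.68, while Socs3 and Cebpg nearly coincide.

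Among the C/EBP factors, Cebpb and Cebpd were higher in the Pspc1 hairpin library and Cebpg was about level. Cebpd (ENSMUSG00000071637, mm10 chromosome 16, 15887286 to 15891031, plus strand, 1 exon), the acute phase inducible C/EBPdelta, had a value of 89.0 in the Pspc1 hairpin library, against 26.9 in the LacZ hairpin library. That is 3.31-fold more, with a log2 ratio of 1.71. The 95% counting interval of the ratio without pseudocount ran from 1.65 to 1.81 on the log2 scale, from 4519 reads with the Pspc1 hairpin and 1753 with the LacZ hairpin. Counting intervals cover sampling of reads and say nothing of the spread between cultures.

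Cebpb (ENSMUSG00000056501, mm10 chromosome 2, 167688915 to 167690418, plus strand, 1 exon), which encodes C/EBPbeta, first known as a nuclear factor for interleukin 6, had 35.7 in the Pspc1 hairpin library, against 12.2 in the LacZ hairpin library. It was 2.91-fold higher, with a log2 ratio of 1.51 and a counting interval of 1.42 to 1.66. Cebpg (ENSMUSG00000056216, mm10 chromosome 7, 35046422 to 35056573, minus strand) had 18.2 in the Pspc1 hairpin library and 19.4 in the LacZ hairpin library. Its log2 ratio was -0.09, its counting interval of -0.22 to 0.03 included 0, and its sign turned to 0.14 after a correction for length and GC content. Within a library the value of Cebpb was 1.96 times that of Cebpg with the Pspc1 hairpin and 0.632 times with the LacZ hairpin, a proportion that no scaling of libraries can move. For Cebpd over Cebpg, the proportion with the Pspc1 hairpin was 3.54 times that with the LacZ hairpin. Between Cebpd and Cebpb it differed by a factor of 1.14, so these 2 genes kept nearly the same proportion to each other. Cebpb and Cebpd were chosen for being higher and Cebpg was not, so nothing is read from their contrast with Cebpg.

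Exons of Cebpb, Cebpd, Il4ra, Stat3 and Cebpg overlap those of genes on the opposite strand, and the library kit named in the labels is not stated to keep strand. For Cebpb the overlap is 312 bp with Tmem189, which had 116.0 in the Pspc1 hairpin library and 89.5 in the LacZ hairpin library. For Cebpd it is 562 bp with Spidr, a gene at 5.02 in the Pspc1 hairpin library and 5.32 in the LacZ hairpin library. Il4ra shares 571 bp, the longest overlap of the 10 genes, with Gm44876, which was not analysed here. Stat3 shares 72 bp with Stat5a, and Cebpg shares 4 bp with Gm45095 on the opposite strand and 73 bp with Gm44836 on its own. Reads in the shared bases cannot be assigned to a gene.

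Other genes of the C/EBP family and its partners did not follow Cebpb and Cebpd, which were chosen for being higher. The list held 15 names, of which 12 were listed and 11 had a mean of at least 5. Over the 8633 genes 0.961% were at least 2-fold higher and 1.92% at least 2-fold lower. Apart from the 3 factors above, 8 genes remained, too few to read against these shares. None of the 8 was at least 2-fold higher and 1 was at least 2-fold lower. That gene was Trib2, a pseudokinase known to promote the breakdown of C/EBPalpha, with 40.8 in the Pspc1 hairpin library and 90.9 in the LacZ hairpin library, 2.23-fold less. Its relatives Trib1 (83.7 in the Pspc1 hairpin library, 88.4 in the LacZ hairpin library) and Trib3 (169 with the Pspc1 hairpin, 183 with the LacZ hairpin) lay close to level. So did Ddit3, which encodes the C/EBP relative CHOP, with 8.86 in the Pspc1 hairpin library and 8.92 in the LacZ hairpin library. The bZIP gene Batf3 had 14.1 with the Pspc1 hairpin and 16.7 with the LacZ hairpin. The median log2 ratio of the 11 genes was -0.02, against -0.01 over the 8633 genes, and its sign flipped under other scalings, to 0.03 for median-of-ratios and 0.02 for a trimmed mean of M values. Cebpz, below the minimum mean and named after its values were seen, had 1.06 with the Pspc1 hairpin and 2.48 with the LacZ hairpin. Cebpa and Cebpe were not analysed here.

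**Figure D2:**
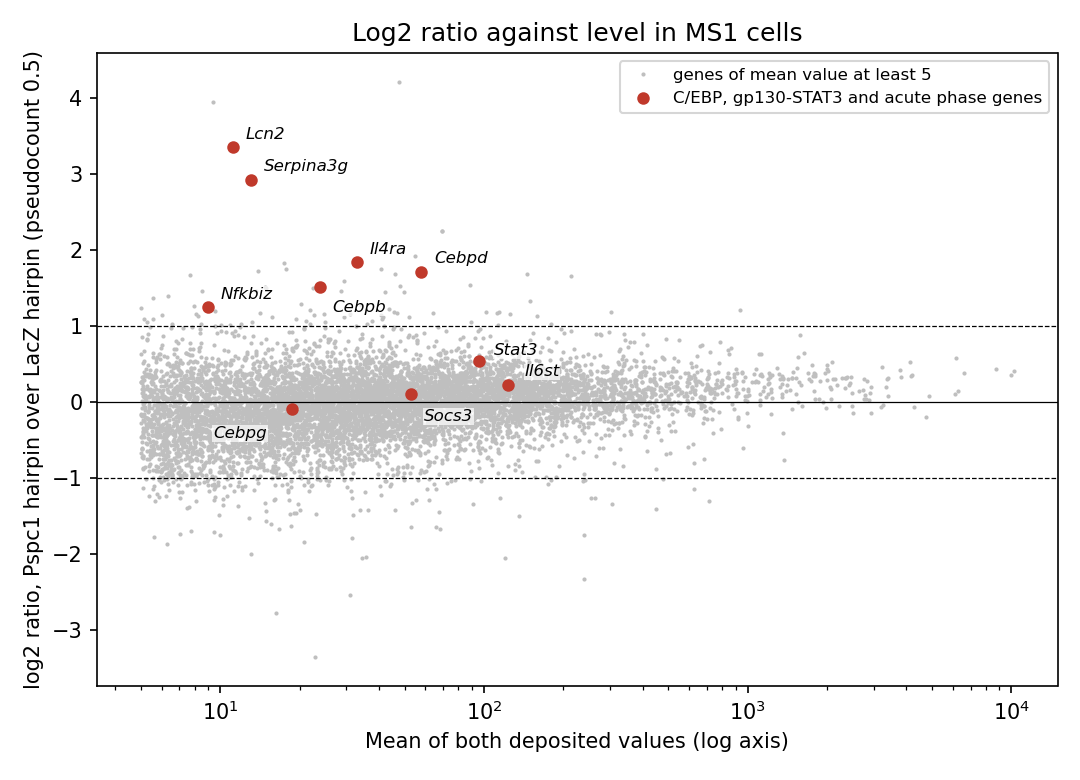
Log2 ratio of the Pspc1 hairpin over the LacZ hairpin library (pseudocount 0.5) against the mean of both deposited values (log axis), for 8633 genes of mean at least 5 (grey) and the 10 genes described (red, named). Dashed lines mark 2-fold; 6 of the 10 genes lie above the upper line and Cebpg, Socs3, Il6st and Stat3 lie between the lines.

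The shared receptor chain, STAT3 and its inhibitor differed less than Cebpb and Cebpd, which were chosen for being higher, but more than Cebpg. Il6st (ENSMUSG00000021756, mm10 chromosome 13, 112464070 to 112510086, plus strand), which encodes gp130, had 132.6 in the Pspc1 hairpin library and 113.4 in the LacZ hairpin library, a log2 ratio of 0.22 (counting interval 0.18 to 0.27). Stat3 (ENSMUSG00000004040, mm10 chromosome 11, 100885098 to 100939540, minus strand) had 113.6 in the Pspc1 hairpin library and 78.2 in the LacZ hairpin library, 1.45-fold more, with an interval of 0.49 to 0.59. Socs3 (ENSMUSG00000053113, mm10 chromosome 11, 117966079 to 117970047, minus strand), whose product blocks gp130-bound JAKs, had 54.9 in the Pspc1 hairpin library and 50.9 in the LacZ hairpin library. The log2 ratio of Socs3 was 0.11, it came to 0.004 with scaling by the total of the listed genes, and it turned to -0.04 after the correction for length and GC content. Socs3 thus stayed near level while Stat3 was somewhat higher: the value of Socs3 over that of Stat3 was 0.483 in the Pspc1 hairpin library and 0.651 in the LacZ hairpin library.

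Genes around STAT3 were mostly a little higher in the Pspc1 hairpin library. Of 15 gp130 cytokines and receptors, 10 were listed and 5 had a mean of at least 5, of which 4 had a log2 ratio above 0, where 48.6% of the 8633 genes did. Il11ra1, the interleukin 11 receptor, had 28.7 in the Pspc1 hairpin library and 16.8 in the LacZ hairpin library. Lif, a gp130 ligand named after its values were seen, lay below the minimum mean, at 5.26 in the Pspc1 hairpin library and 1.66 in the LacZ hairpin library. Il6 itself was not analysed here.

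Of 11 JAK and STAT genes, 8 had a mean of at least 5, none was 2-fold different, 6 lay above a log2 ratio of 0 and the list median was 0.36. Over the 8633 genes 0.961% were at least 2-fold higher and 1.92% at least 2-fold lower, and 48.6% lay above 0. Without Stat3, a gene of the set, 5 of 7 lay above 0 and the list median was 0.26. Besides Stat3, the highest were Stat5a, with 21.1 in the Pspc1 hairpin library and 14.0 in the LacZ hairpin library, and the kinase gene Tyk2, with 66.4 in the Pspc1 hairpin library and 47.2 in the LacZ hairpin library. Stat2, a factor of the interferon response, had 20.4 with the Pspc1 hairpin and 14.8 with the LacZ hairpin. Jak1, the main kinase at gp130, lay below level, with 30.0 in the Pspc1 hairpin library and 34.6 in the LacZ hairpin library. The inhibitors of the pathway showed no common direction. Of 16, 12 had a mean of at least 5, with 6 log2 ratios above 0 and 6 below and a median of -0.02, whose sign turned under 3 of the alternatives. Socs6 was the 1 at least 2-fold lower, with 4.57 in the Pspc1 hairpin library and 10.3 in the LacZ hairpin library, but its log2 ratio of -1.10 shrank to -0.62 after the length and GC correction. Socs1 had 10.4 in the Pspc1 hairpin library and 7.31 in the LacZ hairpin library.

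Of 21 STAT3 target genes, 16 had a mean of at least 5, of which 5 were at least 2-fold higher and none at least 2-fold lower. Of these 5, 3 were Cebpb, Cebpd and Il4ra, which the choice of genes had fixed. The other 2 were Junb, an AP-1 subunit, with 62.1 in the Pspc1 hairpin library and 22.4 in the LacZ hairpin library, and Icam1, a leukocyte adhesion receptor that NF-kB also induces, with 55.9 in the Pspc1 hairpin library and 25.9 in the LacZ hairpin library. Icam1 came under 2-fold with scaling by the total of the listed genes and with a pseudocount of 5. Over all 8633 genes 0.961% were at least 2-fold higher and 48.6% lay above 0. Without the genes of the set, 2 of 11 targets were at least 2-fold higher, 9 lay above a log2 ratio of 0 and their median was 0.24. This list, like the other lists, was chosen with earlier results of these data known, so its counts carry no test. Several well-known targets lay near level. Myc had 53.6 in the Pspc1 hairpin library and 59.7 in the LacZ hairpin library. The survival gene Mcl1 had 251 with the Pspc1 hairpin and 245 with the LacZ hairpin, and the kinase gene Pim1 had 32.2 with the Pspc1 hairpin and 31.4 with the LacZ hairpin. Targets below the minimum mean went both ways, named after their values were seen. Vegfa had 2.66 with the Pspc1 hairpin and 6.11 with the LacZ hairpin, 2.30-fold less. Bcl3 had 3.35 with the Pspc1 hairpin and 1.35 with the LacZ hairpin, 2.48-fold more.

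**Figure D3:**
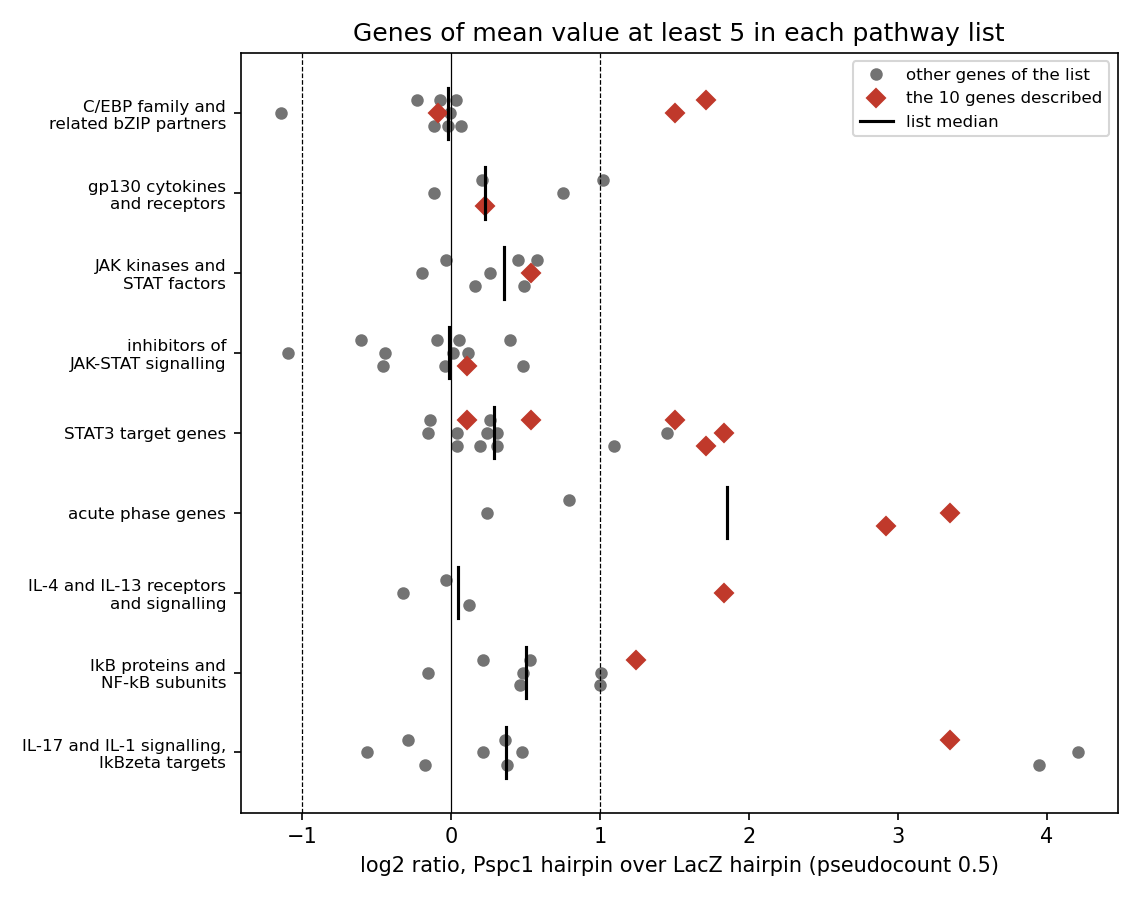
Log2 ratio of the Pspc1 hairpin over the LacZ hairpin library (pseudocount 0.5) of each gene of mean at least 5 in 9 pathway lists, with genes of the set as red diamonds, others as grey circles and list medians as black bars. Cebpb and Cebpd lie apart from the rest of the C/EBP list, and Cxcl1 and Cxcl2 are the points furthest to the right.

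Il4ra differed more than Il6st, the other receptor gene of the set. Il4ra (ENSMUSG00000030748, mm10 chromosome 7, 125552120 to 125579474, plus strand), the alpha chain shared by receptors for interleukin 4 and interleukin 13, had 51.9 in the Pspc1 hairpin library, against 14.2 in the LacZ hairpin library. It was 3.65-fold higher, with a log2 ratio of 1.83 and a counting interval of 1.76 to 1.98 from 2634 reads with the Pspc1 hairpin and 927 with the LacZ hairpin. Of 7 genes of interleukin 4 and interleukin 13 signalling, 4 had a mean of at least 5, and Il4ra was the 1 of them past 2-fold. Il4ra was chosen for being higher, so this count supports nothing. Without it 3 genes remained, none past 2-fold, where 0.961% of the 8633 genes were at least 2-fold higher and 1.92% at least 2-fold lower. The partner chain of Il4ra, Il13ra1, had 5.52 in the Pspc1 hairpin library and 7.02 in the LacZ hairpin library. Stat6, the STAT that Il4ra activates, had 134.0 with the Pspc1 hairpin and 137.2 with the LacZ hairpin. Il2rg, the other partner chain, was below the minimum mean, with 5.97 in the Pspc1 hairpin library and 2.36 in the LacZ hairpin library (named after its values were seen). The value of Il4ra was 9.41 times that of Il13ra1 in the Pspc1 hairpin library and 2.02 times in the LacZ hairpin library.

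Nfkbiz was higher at a low level. Nfkbiz (ENSMUSG00000035356, mm10 chromosome 16, 55811375 to 55838899, minus strand), which encodes IkBzeta, a nuclear IkB protein needed for transcription of Lcn2 and other secondary response genes, had 12.8 in the Pspc1 hairpin library and 5.15 in the LacZ hairpin library. It was 2.49-fold higher, with a log2 ratio of 1.24 and a counting interval of 1.13 to 1.51. With a pseudocount of 5 the log2 ratio was 0.81, the only one of the 6 to drop under 2-fold with any alternative for its log2 ratio. Of 11 IkB and NF-kB genes, 8 had a mean of at least 5 and 7 of these lay above a log2 ratio of 0, and the list median was 0.50. Over the 8633 genes 48.6% lay above 0 and the median was -0.01. Without Nfkbiz, 6 of 7 lay above 0 and the list median was 0.48. The 1 gene below 0 was Nfkb1, with 47.5 in the Pspc1 hairpin library and 52.9 in the LacZ hairpin library. The IkB gene Nfkbia (151.2 in the Pspc1 hairpin library, 75.1 in the LacZ hairpin library) and the subunit gene Relb (56.0 in the Pspc1 hairpin library, 27.7 in the LacZ hairpin library) sat at the 2-fold edge, 2.01-fold and 2.02-fold higher. Both came under it with scaling by the total of the listed genes and after the length and GC correction, the last with log2 ratios of 0.80 for Nfkbia and 0.90 for Relb. Rela had 232.5 in the Pspc1 hairpin library and 166.6 in the LacZ hairpin library.

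Both acute phase genes of the set were scarce in the LacZ hairpin library. Lcn2 (ENSMUSG00000026822, mm10 chromosome 2, 32384633 to 32388252, minus strand), which encodes lipocalin 2, a protein that binds bacterial iron carriers, had 20.9 in the Pspc1 hairpin library, against 1.59 in the LacZ hairpin library. It was 13.1-fold higher by 1059 reads with the Pspc1 hairpin and 104 with the LacZ hairpin, with a counting interval of 3.42 to 4.02 log2. Its log2 ratio of 3.35 with the pseudocount of 0.5 was 1.97 with one of 5 and 3.71 with none. By log2 ratio it stood at rank 3 of the 8633 genes, and Serpina3g at rank 4.

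Serpina3g (ENSMUSG00000041481, mm10 chromosome 12, 104236245 to 104241939, plus strand), an inhibitor of cysteine proteases such as cathepsins in mouse immune cells, had 23.6 in the Pspc1 hairpin library, against 2.68 in the LacZ hairpin library. It was 8.79-fold higher by 1197 reads with the Pspc1 hairpin and 175 with the LacZ hairpin, with a log2 ratio of 2.92 and a counting interval of 2.91 to 3.37. Serpina3g has close copies in the Serpina3 cluster, and how the counting shared reads among the copies is not known, so its value is uncertain to that extent. Its neighbour copy Serpina3i, below the minimum mean and named after its values were seen, had 4.06 in the Pspc1 hairpin library and 3.37 in the LacZ hairpin library.

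Of 38 acute phase genes 7 were listed and the other 31 were not analysed here. Of these, 4 had a mean of at least 5 and all 4 had a log2 ratio above 0, with Lcn2 and Serpina3g the 2 past 2-fold. Lcn2 and Serpina3g were chosen for being higher and passed the minimum only through the Pspc1 hairpin library, so these counts support nothing. Without them 2 genes remained, neither past 2-fold, with a median log2 ratio of 0.52. Lbp, the lipopolysaccharide-binding protein, had 17.4 with the Pspc1 hairpin and 14.7 with the LacZ hairpin. C3, the central complement component, named after its values were seen, rested on 72 reads in the Pspc1 hairpin library and 1 read in the LacZ hairpin library. Its ratio was 92.6, or 6.53 on the log2 scale with a counting interval of 4.01 to 11.86, and its mean value of 0.717 was far below the minimum.

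Among genes of interleukin 17 and interleukin 1 signalling and targets of IkBzeta, Cxcl1, Cxcl2 and Lcn2 had the highest ratios of those measured. Of 17 names, 10 had a mean of at least 5, of which 3 were at least 2-fold higher and none at least 2-fold lower. Besides Lcn2 these were Cxcl1, with 91.2 in the Pspc1 hairpin library and 4.46 in the LacZ hairpin library, and Cxcl2, with 18.1 in the Pspc1 hairpin library and 0.705 in the LacZ hairpin library, both attractants of neutrophils. Cxcl1 was 20.5-fold higher and Cxcl2 25.7-fold. Each of these 3 genes was under 5 in the LacZ hairpin library and passed the minimum mean only through the Pspc1 hairpin library, and Lcn2 was chosen for being higher, so nothing is read from the count of 3 beside the 0.961% of all genes tested. Receptor and adaptor genes differed less. The receptor gene Il17ra had 122 with the Pspc1 hairpin and 105 with the LacZ hairpin, the adaptor gene Myd88 had 52.1 with the Pspc1 hairpin and 37.3 with the LacZ hairpin, and the ubiquitin ligase gene Traf6 had 11.8 with the Pspc1 hairpin and 17.7 with the LacZ hairpin. The list median was 0.37. At a minimum mean of 50 only Il17ra and the kinase gene Irak1 remain, and the midpoint of their log2 ratios, 0.22 for Il17ra and -0.29 for Irak1, is -0.04.

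Compared per kilobase of merged exons, the order of the 10 levels differed between the libraries. In the Pspc1 hairpin library Cebpd (23.8 per kb) and Cebpb (23.7) came first, with overlapping 95% counting intervals, followed by Socs3 (19.0). Il6st (11.9), Stat3 (11.9) and Serpina3g (11.2) overlapped as well, as did Il4ra (8.64) and Lcn2 (7.95), and Cebpg (3.23) and Nfkbiz (2.56) were lowest. In the LacZ hairpin library Socs3 (17.6 per kb) and Il6st (10.2) came first, then Stat3 (8.20) and Cebpb (8.14), whose intervals overlapped, and Cebpd (7.17). Cebpg (3.45) and Il4ra (2.37) followed, then Serpina3g (1.27) and Nfkbiz (1.03), whose intervals overlapped, and Lcn2 was lowest at 0.608. Merged exons overstate the length of a typical transcript of genes with many isoforms, so these orders hold for this length only.

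The nearest listed genes on the chromosome were not 2-fold different. For each of the 10 genes the nearest gene of mean at least 5 that does not overlap it was taken on either side, which gave 20 neighbours, of which 10 had a log2 ratio above 0 and none was 2-fold higher or lower. Over the 8633 genes 48.6% lay above 0, 0.961% were at least 2-fold higher and 1.92% at least 2-fold lower. The neighbours were close to these shares, so nothing is read from their counts. The log2 ratios of the neighbours ran from -0.61 for Cblb, to the left of Nfkbiz, to 0.95 for 1110008P14Rik, to the left of Lcn2. Cblb lies 3603327 bp away, the greatest distance of the 20. The other neighbour of Lcn2, Ptges2, had 103 in the Pspc1 hairpin library and 64.8 in the LacZ hairpin library. Those of Serpina3g were below level, at -0.30 for Ifi27 and -0.39 for Dicer1. Among genes of mean at least 50, the log2 ratios nearest to that of Cebpb over these 2 libraries were those of Cldn12 (1.54, a difference of 0.03), Zyx (1.66, 0.15) and Ifngr2 (1.68, 0.18). A likeness over 2 libraries is a likeness of a single ratio.

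The log2 ratio also went with gene length and base composition across genes, so each member was given beside a corrected value. Over 8627 genes (mean at least 5) the rank correlation between log2 ratio and exonic length was -0.36 by Spearman's rho, and that between log2 ratio and GC content was 0.35, across genes, which are not independent replicates. The 10 genes were close to the rest in both, with a median exonic length of 4382 bp (4326 bp over the 8627 genes) and a median GC content of 52.1% (50.8%). Their own spread was wide, as Cebpb has 1504 bp at 67.2% GC and Il6st has 11099 bp at 47.4%. After the correction Cebpb had a log2 ratio of 1.59, Cebpd 1.65, Il4ra 1.82, Nfkbiz 1.26, Serpina3g 2.80 and Lcn2 3.19. Stat3 had 0.67 and Il6st 0.50, and the largest move of any of the 10 was 0.27, for Il6st.

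**Figure D4:**
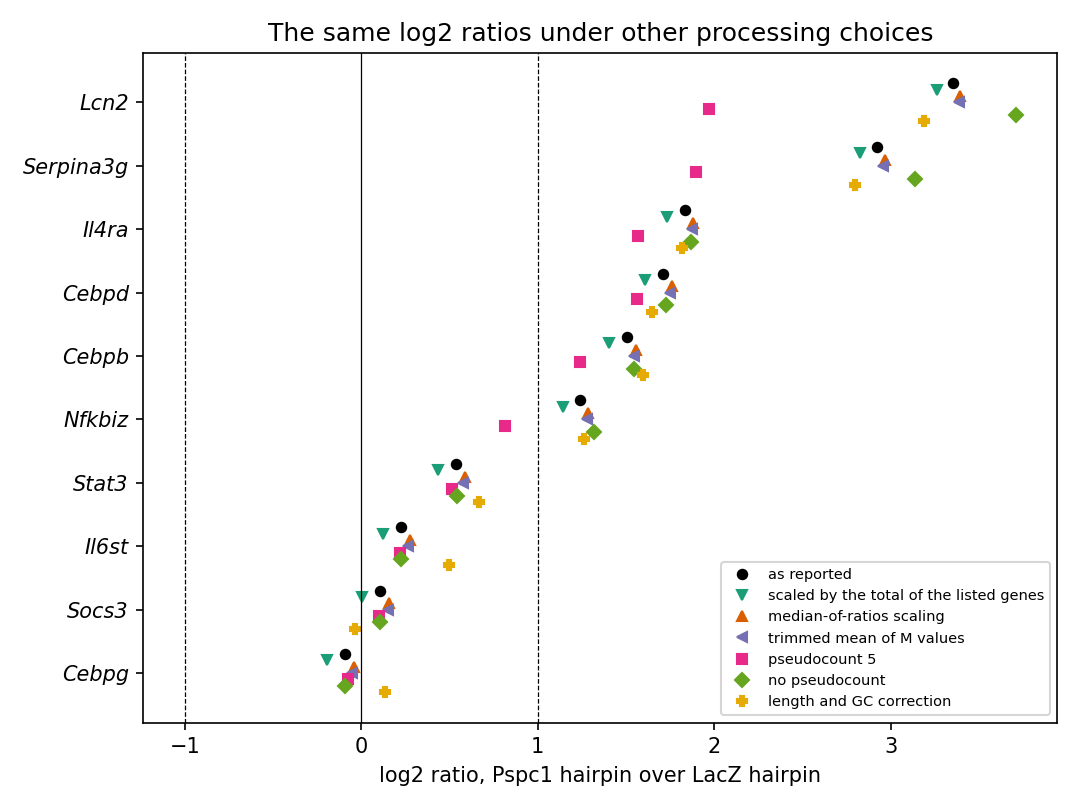
Log2 ratio of the Pspc1 hairpin over the LacZ hairpin library for the 10 genes as reported (black circles) and under 6 other processing choices (coloured symbols), with dashed lines at 2-fold. Lcn2 and Serpina3g move most, to 1.97 and 1.90 with a pseudocount of 5, and Socs3 and Cebpg lie on both sides of 0.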

How the data were processed

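Per the labels' protocols, TRIzol RNA was enriched for poly-A and made into libraries with a NEBNext Ultra kit. The submitters' processing notes list HISAT2 2.1.0, Trimmomatic 0.39, DESeq 1.39.0 and featureCounts 2.0.0 with build mm10. What each tool did, the annotation and the scaling formula are not given in the sources used here. Values as deposited by the authors are a gene-level signal (scaled counts). All were whole multiples of 1 step per library within 0.01 reads, 0.0197 in the Pspc1 hairpin library and 0.0153 in the LacZ hairpin library, which gave the reads behind each value. These reads carry no molecular identifiers.

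Genes and lists were chosen with earlier results of these data known. The log2 ratio used a pseudocount of 0.5, which understates changes of low genes. With 1 library per group no count model or p-value was possible, and no difference has a replicate check. Called means a mean of at least 5 and at least 2-fold. Intervals are exact 95% conditional binomial (Clopper-Pearson) for ratios and exact Poisson for levels per kilobase. Named genes were the 10 of the set, Pspc1, up to 4 genes per list with the largest absolute log2 ratio, and the 3 nearest to Cebpb; the markers and near-level genes given beside them were picked for contrast after their values were seen. Some genes that this rule names are not reported here. Symbols matched 11399 of 11405 identifiers. Positions and lengths came from GENCODE M21 on the same build. The correction for length and GC content subtracts a cubic surface fitted across genes. Steps were tested on simulated reads. Python 3.11.15, numpy 2.4.6, pandas 2.3.3, scipy 1.17.1 and matplotlib 3.10.9 were used.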

Additional observations from a re-analysis of the deposited data

How the results depend on the processing

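The 6 genes at least 2-fold higher remained so under the 3 other scalings and with length and GC content corrected for; with a pseudocount of 5 the count was 5, without Nfkbiz, and with a mean of at least 50 it was 1, Cebpd, because the others lie under that minimum. None of these 6 log2 ratios turned its sign under the alternatives run. Scaling by the total of the listed genes moved every gene by -0.10 log2, the trimmed mean of M values by 0.04 and median-of-ratios scaling by 0.05. Over all genes, 83 were called higher and 166 lower. Higher and lower counts were 61 and 261 with scaling by total, 99 and 130 with median-of-ratios scaling, 97 and 135 with the trimmed mean of M values, 44 and 61 with a pseudocount of 5, 78 and 96 after the length and GC correction, 20 and 34 with a mean of at least 50, 149 and 306 with no filter, and 343 and 809 at 1.5-fold. The cause of these moves was not tested. The calls of Nfkbia and Relb were lost with scaling by total, with a pseudocount of 5 and with the length and GC correction. That of Icam1 was lost with scaling by total and with a pseudocount of 5. The depth limits Lcn2 most, with 104 reads in the LacZ hairpin library and a counting interval 0.60 log2 wide. No paired analysis was possible because each group has 1 library.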
